A study of Mus musculus with 6 samples.

Results

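The 10 genes described here encode the thyrotropin receptor and the cAMP pathway below it: Tshr, Gnas, Adcy3, Adcy6, Adcy9, Prkaca, Prkar1a, Pde4b, Pde4d and Crem. They were listed by name, and each was read through every probe set that the array's platform annotation gives to that gene alone, 34 of the 34958 probe sets with a single gene symbol. The list holds 10 of the 18194 genes so named. Thyroid was microdissected from mice at postnatal day 15, and its RNA was read on Affymetrix mouse expression arrays, 1 array a sample. There were 3 samples of Slc26a4 knockout mice (numbered 2, 4 and 6) and 3 of Slc26a4 heterozygous mice (numbered 1, 3 and 5), so that the controls also carried the mutated allele. Slc26a4 encodes pendrin, an anion exchanger on the follicular cell's apical side. Strain, sex and how many mice gave each RNA are not stated in the labels. Nothing there says that samples of a genotype came from separate mice, so the p-values cover sample-to-sample spread that may be partly technical.

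Thyrotropin, released by the pituitary, binds its receptor on thyroid follicular cells. The receptor activates the stimulatory G protein, whose alpha subunit switches on adenylyl cyclases, and the cAMP they make releases the catalytic subunits of protein kinase A from its regulatory subunits. Phosphodiesterases of the PDE4 family break cAMP down and are activated and induced by cAMP signalling, and Crem encodes activators of cAMP-responsive transcription as well as ICER, a repressor that cAMP itself induces. In the thyroid this pathway drives iodide uptake, hormone synthesis and growth of the gland.

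None of the 10 genes was called higher or lower in knockout thyroid. Of 34 probe sets, 24 were bright enough to be tested, at least 1 for each gene, and 0 passed an adjusted p of 0.05 in limma, beside 0% of the 27022 probe sets tested on the array. Without adjustment, 1 of the 24, a probe set of Prkaca, had a limma p under 0.05, against 0.511% of all tested. With no difference anywhere a share of about 0.05 would be awaited, so the p-values may be too large and the intervals too wide. The absence of calls therefore does not show that levels were equal. The genotypes did not overlap at 2 of the 24, against 3.68% of all tested. The adjusted p of every member probe set was 1 (limma). Taking the tested probe set with the highest mean for each gene, log2 differences ran between -0.19 and 0.29 with a median of 0.020, against a median of -0.0021 over all probe sets tested. The median size without sign was 0.11, against 0.090 over all tested. A log2 difference is knockout minus heterozygous throughout, so that a positive one means a higher knockout value.

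More estimates were above 0 than below, but that count depended on how the arrays were handled. Of the 24 probe sets 20 had a higher knockout estimate, where 49.3% of all probe sets tested did. Probe sets of 1 gene can read the same transcripts and are not independent, and by gene the count was 8 of 10. With sample numbers 1 to 3 and 4 to 6 fitted as a block, an alternative chosen after seeing the data, the counts were 14 of 24 and 3 of 10. By gene the count was also 3 of 10 without heterozygous 3, 4 of 10 without knockout 4 and 5 of 10 without knockout 6. It was 8 of 10 without heterozygous 1, 7 of 10 without knockout 2 and 7 of 10 without heterozygous 5.

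**Figure D1:**
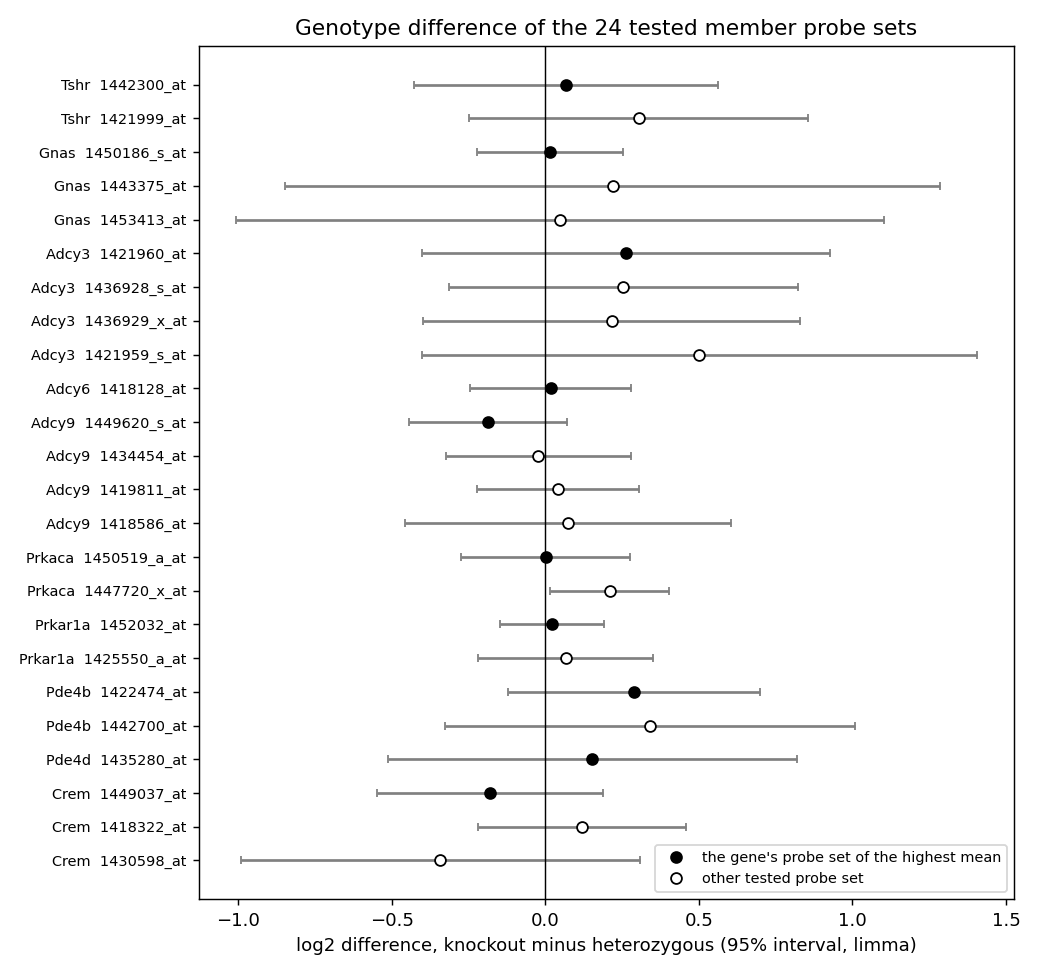
Log2 difference, knockout minus heterozygous, of each of the 24 tested probe sets (point) with its 95% interval from limma (bar); filled points are the probe set with the highest mean of each gene. The intervals of 23 of the 24 include 0, and the widest belong to Adcy3 1421959_s_at and 2 probe sets of Gnas.

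The tissue was checked against markers. On every array the thyroid genes Tg and Iyd were bright, with Tg between 11794 and 13805. All 6 of the 6 thyrocyte markers read here exceeded the background on all arrays, but not all were as even. Slc5a5 read between 1291 on heterozygous 5 and 3400 on knockout 2, and Dio1 between 2739 on knockout 6 and 5090 on knockout 2. The 6 summed to 26550 to 30745 in knockout and 26907 to 32470.5 in heterozygous samples. The background was set at 22.9, the brightest value of 27 bacterial control probe sets. Slc26a4 itself read at most 15.7, under background in both genotypes, so it does not check the labels. Parathyroid markers summed to 3406 on knockout 6 and 990.1 on heterozygous 1 and to at least 15998 on the other 4, thymocyte markers to 2549.7 on knockout 4 and at most 154 elsewhere, and skeletal muscle markers to between 3424 on knockout 6 and 19816 on knockout 2. The part of these neighbouring tissues in the values below was not tested. Xist, the X-inactivation RNA of female cells, read 5442 on knockout 6, against 77.6 and 34.3 on knockouts 2 and 4 and at most 110.2 on the heterozygous arrays (1436936_s_at), so that knockout 6 stood apart from the other 5. Its part in the members' values was not tested, and the count of genes without knockout 6 is the one given above. In whole tissue, fewer cells of a type and less RNA per cell cannot be told apart.

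Tshr, the receptor, was brighter than background at 2 of its 3 probe sets. By 1442300_at its signal was 1128, 682 and 1091 on knockout arrays 2, 4 and 6, against 1093, 805 and 829.6 on heterozygous arrays 1, 3 and 5. The highest and the lowest of the 6 values were both from knockouts, and the groups overlapped. The means were 967 ± 248 in knockout and 909 ± 159.8 in heterozygous thyroid (SD, n = 3 each), and the log2 difference of 0.066 (95% interval -0.43 to 0.56) leaves room for a knockout level of 0.743 to 1.48 times the heterozygous one. By 1421999_at it was 425, 291 and 494 on knockout arrays 2, 4 and 6, against 395, 324 and 247 on heterozygous arrays 1, 3 and 5. The low arrays were again knockout 4 with heterozygous 3 and 5, and the log2 difference was 0.30 (95% interval -0.25 to 0.86). The 1442300_at estimate was -0.22 when arrays were weighted by their consistency and between -0.060 and 0.30 when 1 array was left out, so that its sign depended on the arrays used. The third probe set, 1428001_at, read at most 9.09 on any array, under background.

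Likeness to Tshr 1442300_at in log2 values over the 6 arrays was read among tested probe sets with a single gene symbol. The closest were those of Ap5z1 (Pearson r = 0.994), Txlna (0.984), Tlcd3b (0.984), Efr3b (0.982) and Mbd1 (0.979). With 6 arrays and so many probe sets such values are a description only. Of the tested probe sets with a single gene symbol, 0.452% had an r above 0.9. The other Tshr probe set had an r of 0.82. The other 9 members had an r between -0.66 (Crem) and 0.14 (Adcy6). Efr3b, a plasma membrane anchor of a lipid kinase, read 753, 538 and 759.7 on knockouts 2, 4 and 6, against 772, 623 and 657 on heterozygous 1, 3 and 5.

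**Figure D2:**
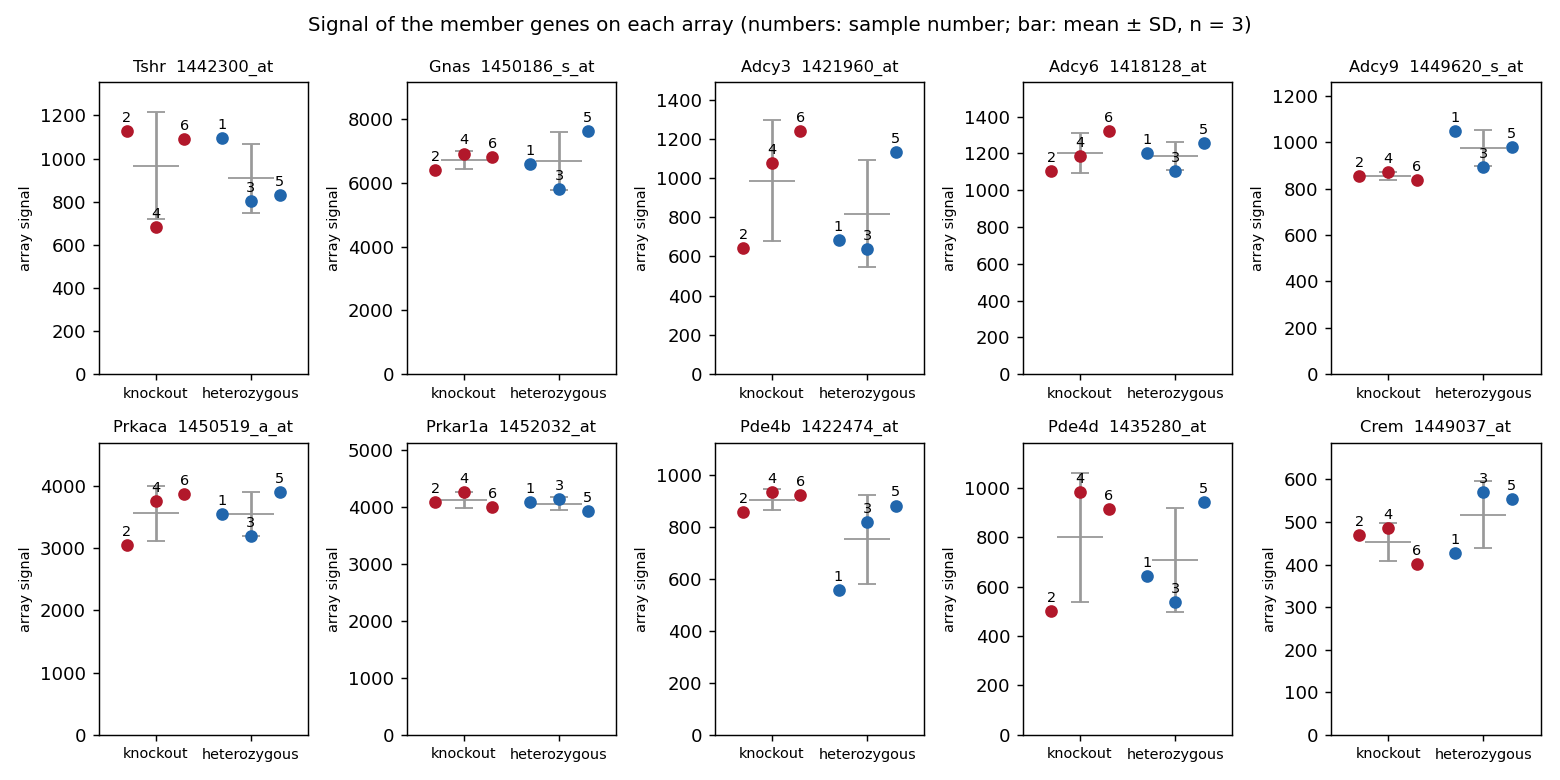
Array signal (linear, from 0) of the 10 genes by the probe set with the highest mean, knockout left and heterozygous right; each point is 1 array with its sample number, and grey bars are the mean ± SD (n = 3). Adcy9 is the 1 panel in which the groups do not overlap, and in the panels of Adcy3, Pde4d, Gnas, Prkaca and Pde4b arrays 4, 5 and 6 stand above 1, 2 and 3.

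Gnas encodes the alpha subunit of the stimulatory G protein from a complex imprinted locus that also makes other proteins and an antisense transcript. By 1450186_s_at its signal was 6406, 6930.2 and 6832 on knockout arrays 2, 4 and 6, against 6599.9, 5821 and 7639 on heterozygous arrays 1, 3 and 5. Both extremes were heterozygous. The log2 difference was 0.016 (95% interval -0.22 to 0.25), by this probe set a knockout level of 0.857 to 1.19 times the heterozygous one. At 1443375_at the signal was 179.6, 215 and 535 on knockout arrays 2, 4 and 6, against 128, 265 and 372 on heterozygous arrays 1, 3 and 5. Knockout 6 was highest and heterozygous 1 lowest, and 1453413_at had the same highest and lowest array, at 270.2 and 72.8. These 2 probe sets varied 4.17-fold and 3.71-fold between arrays, against 1.31-fold at 1450186_s_at, and their genotype intervals were the widest among the members (-0.85 to 1.29 and -1.01 to 1.10). Which transcript of the locus each probe set reads is not given in the annotation used here. The remaining 2 Gnas probe sets were under background on all arrays.

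Adcy3 is an adenylyl cyclase best known from olfactory cilia and also present in fat. By 1421960_at its signal was 644, 1077 and 1239.9 on knockout arrays 2, 4 and 6, against 682, 639 and 1133 on heterozygous arrays 1, 3 and 5. Within each genotype it was split, with knockouts 4 and 6 and heterozygous 5 high and knockout 2 and heterozygous 1 and 3 low. The means were 987 ± 308 in knockout and 818 ± 274 in heterozygous thyroid (SD, n = 3 each), closer together than either SD, and the log2 difference was 0.26 (95% interval -0.40 to 0.93). The dimmest of its probe sets, 1421959_s_at, read 65.8, 141 and 196 on knockout arrays 2, 4 and 6, against 76.0, 56.3 and 128 on heterozygous arrays 1, 3 and 5, with the same arrays high and the same low, and differed by 0.50 (95% interval -0.40 to 1.41). All 4 probe sets of Adcy3 had arrays 4 to 6 wholly above arrays 1 to 3, with mean ratios of 1.47 to 2.35. Within numbers 1 to 3 the log2 difference between genotypes at 1421960_at was -0.035 and within 4 to 6 it was 0.028, and with the numbers as a block it was -0.0034 (95% interval -0.26 to 0.26).

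Adcy6 and Adcy9, a calcium-inhibited cyclase and a forskolin-insensitive one, varied little by their brightest probe sets. Adcy6 read 1106, 1183 and 1322 on knockout arrays 2, 4 and 6, against 1201, 1106 and 1254 on heterozygous arrays 1, 3 and 5. The groups overlapped, with a log2 difference of 0.018 (95% interval -0.24 to 0.28). Adcy9 had 4 tested probe sets, and at 1449620_s_at it read 854, 871 and 836 on knockout arrays 2, 4 and 6, against 1049, 895 and 981 on heterozygous arrays 1, 3 and 5. Here every knockout lay below every heterozygous array, the one member probe set of which that was so, with a log2 difference of -0.19 (95% interval -0.44 to 0.071) and an unadjusted p of 0.13 (limma, adjusted p = 1). At the nearly as bright 1434454_at it read 912, 872 and 812 on knockout arrays 2, 4 and 6, against 1009, 782 and 857 on heterozygous arrays 1, 3 and 5, with the highest and the lowest array both heterozygous. The log2 differences of the other 3 probe sets, whose groups overlapped, were -0.022, 0.041 and 0.074, so the probe sets of this gene did not share a direction.

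Prkaca encodes a catalytic subunit of protein kinase A. At 1447720_x_at its signal was 2637, 2479 and 2434 on knockout arrays 2, 4 and 6, against 2158, 2223 and 2138 on heterozygous arrays 1, 3 and 5. Every knockout was above every heterozygous array, with 2517 ± 107 in knockout and 2173 ± 44.5 in heterozygous thyroid (SD, n = 3 each) and a log2 difference of 0.21 (95% interval 0.016 to 0.40). This was the smallest p of the 24, at 0.037 unadjusted, and it did not pass (limma, adjusted p = 1). Within sample numbers 1 to 3 the difference was 0.27 and within 4 to 6 0.20. With the numbers as a block it was 0.23 (95% interval 0.054 to 0.41). It did not pass there either (limma, unadjusted p = 0.018, adjusted p = 0.99999). The probe set's suffix marks probes that may also match other transcripts. At 1450519_a_at, the other Prkaca probe set, the signal was 3053, 3757 and 3868 on knockout arrays 2, 4 and 6, against 3545, 3196 and 3902 on heterozygous arrays 1, 3 and 5. There the groups overlapped, and the log2 difference was 0.0018 with an interval of -0.27 to 0.28.

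Prkar1a encodes the type I alpha regulatory subunit that holds the kinase inactive, and it was the steadiest of the 10 genes. By 1452032_at it read 4092, 4269 and 3999 on knockout arrays 2, 4 and 6, against 4096, 4146 and 3925 on heterozygous arrays 1, 3 and 5. All 6 arrays lay within 1.09-fold of each other. The log2 difference was 0.023 (95% interval -0.15 to 0.19). By this probe set that is a knockout level of 0.903 to 1.14 times the heterozygous one, the narrowest interval among the 24. Its 1425550_a_at read 1105, 918 and 888 on knockout arrays 2, 4 and 6, against 873, 948 and 945 on heterozygous arrays 1, 3 and 5. Knockout 2 was above the rest, and the log2 difference was 0.066, with a wider 95% interval of -0.22 to 0.35. A further probe set, 1447635_at, exceeded background on 1 array and was not tested.

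The feedback phosphodiesterases Pde4b and Pde4d did not pass either. Pde4b, by 1422474_at, read 858, 935 and 921 on knockout arrays 2, 4 and 6, against 556, 817 and 882 on heterozygous arrays 1, 3 and 5. Heterozygous 1 stood apart from the other 5 arrays, and heterozygous 5 lay within the knockout range. The means were 904 ± 40.9 in knockout and 752 ± 173 in heterozygous thyroid (SD, n = 3 each), and the log2 difference of 0.29 (95% interval -0.12 to 0.70) was the highest among the genes (limma, unadjusted p = 0.14, adjusted p = 1). Without heterozygous 1 it was 0.089. Its dimmer probe set 1442700_at read 72.3, 48.7 and 84.4 on knockout arrays 2, 4 and 6, against 33.4, 70.4 and 49.6 on heterozygous arrays 1, 3 and 5, also with heterozygous 1 lowest, and differed by 0.34. Of the other 4 Pde4b probe sets 3 were under background on all arrays.

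Pde4d, by 1435280_at, read 501, 984 and 915 on knockout arrays 2, 4 and 6, against 642, 539 and 941 on heterozygous arrays 1, 3 and 5. As in Adcy3, arrays 4 to 6 were all high and arrays 1 to 3 all low, at a mean ratio of 1.69. The genotype difference was 0.15 (95% interval -0.51 to 0.82). Within numbers 1 to 3 it was -0.23 and within 4 to 6 0.012, and with the numbers as a block it turned to -0.11 (95% interval -0.41 to 0.19). The second Pde4d probe set read at most 12.9 and was not tested.

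Crem was read by 3 tested probe sets that did not share a direction. By 1449037_at the signal was 470.2, 485 and 402 on knockout arrays 2, 4 and 6, against 428, 571 and 553 on heterozygous arrays 1, 3 and 5. Heterozygous 3 and 5 were highest and knockout 6 lowest, the groups overlapped, and the log2 difference was -0.18 (95% interval -0.55 to 0.19). By 1418322_at it was 397, 384 and 330.3 on knockout arrays 2, 4 and 6, against 332, 369 and 317 on heterozygous arrays 1, 3 and 5, with a difference of 0.12 (95% interval -0.22 to 0.46). At 1430598_at, the dimmest of them, knockouts read 64.6, 45.2 and 51.9 and heterozygotes 45.2, 89.0 and 90.9, a difference of -0.34. Neither the activator nor the ICER transcripts can be assigned to a probe set from the annotation used here. In all, 10 of the 34 member probe sets were not tested, of which 7 never exceeded background.

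In several members the signals followed the sample number in both genotypes. For 8 of the 24 tested probe sets, from Adcy3, Pde4d, Pde4b, Gnas and Prkaca, the arrays numbered 4 to 6 lay wholly above those numbered 1 to 3, and for 0 wholly below. Over the array 11.6% of tested probe sets were wholly above and 13.1% wholly below, together 24.7%. The labels name no batch. Numbers 1 to 3 hold knockout 2 with heterozygous 1 and 3, and numbers 4 to 6 hold knockouts 4 and 6 with heterozygous 5. The genotypes are thus unevenly spread, and a shift between 1 to 3 and 4 to 6 also moves the unblocked genotype difference. Each difference given within numbers rests on a single array of 1 genotype. Among fat markers, Cidea read 4091, 6722 and 6849 on knockouts 2, 4 and 6, against 5026, 4770.2 and 6526 on heterozygous 1, 3 and 5. Adipoq, the gene of the fat hormone adiponectin, read 4666, 6688 and 7281 on knockouts 2, 4 and 6, against 5038, 5066 and 6724 on heterozygous 1, 3 and 5. Ucp1, the uncoupling protein of brown fat, read 9211, 11977 and 11253 on knockouts 2, 4 and 6, against 10639, 9816 and 11159 on heterozygous 1, 3 and 5. In these 3 of the 5 fat markers arrays 4, 5 and 6 were wholly above 1, 2 and 3, and in the other 2 they were not. Fabp4, a fatty acid carrier, read 10725, 12340.1 and 11777 on knockouts 2, 4 and 6, against 12548, 11527 and 11618 on heterozygous 1, 3 and 5. Lep, the leptin gene, read 577, 644 and 728 on knockouts 2, 4 and 6, against 821, 412 and 837 on heterozygous 1, 3 and 5. In Fabp4 and in Lep, knockout 2 and heterozygous 3 lay below arrays 4 to 6, and heterozygous 1 did not. The 5 fat markers, all above background on every array, summed to 29269 to 38372 in knockout and 31590.4 to 36863 in heterozygous samples, ranges that overlapped. The sum of 5 skeletal muscle markers was at most 11018 on arrays 4 to 6 and at least 14241 on arrays 1 to 3. Of the single markers, Tnnt3 and Myh1 were wholly lower on arrays 4 to 6, and Acta1, Ckm and Myh4 overlapped. Other cell types split too. Of the thyrocyte markers 2 (Iyd and Dio1) were wholly lower on arrays 4 to 6 and 4 overlapped. Of the C cell markers 2 were wholly lower and 2 overlapped, and of the fibroblast markers 2 were wholly higher and 2 overlapped. Every parathyroid, cartilage, T cell, macrophage and endothelial marker overlapped. The part of fat, muscle, other cell types or processing in the members' values was not tested.

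**Figure D3:**
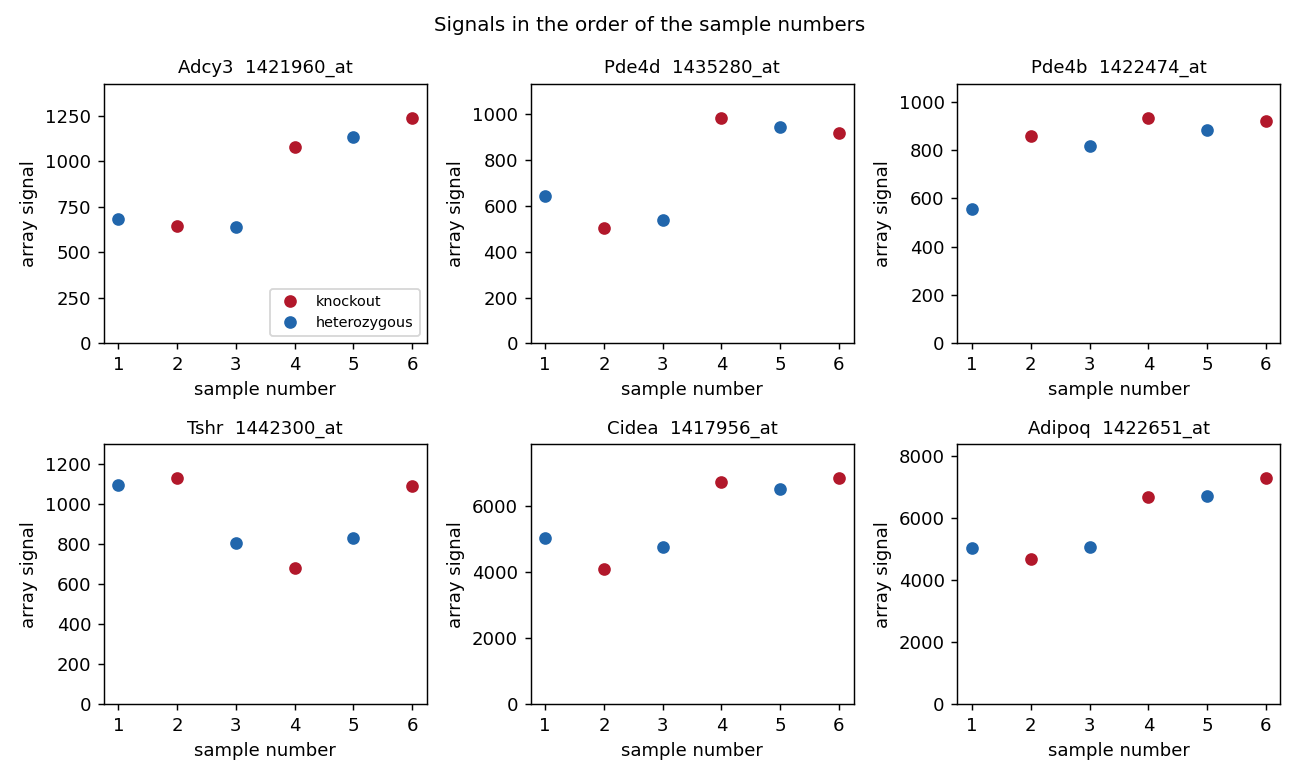
Array signal (linear, from 0) against sample number for Adcy3, Pde4d, Pde4b and Tshr and for the fat genes Cidea and Adipoq; red points are knockout and blue points heterozygous arrays. Adcy3, Pde4d, Pde4b, Cidea and Adipoq are higher on samples 4, 5 and 6 than on 1, 2 and 3, and Tshr does not follow that order. Not shown are the fat markers Ucp1, which also follows it, and Fabp4 and Lep, which do not.

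Promoter sequence is shown for Adcy3 and Pde4d, which moved together across the arrays, and for Prkar1a, the steadiest member, as a comparison; the 3 were picked after their values were seen. The motif searched was TGACGTCA, the full cAMP response element bound by CREB, which reads the same on both strands, and its shorter form TGACG on either strand, which the full element contains on both. RefSeq windows on GRCm38.p6, from 250 bases before to 50 after a start site, covered 7 of the 10 genes with 20 windows. The full element stood in 2 of the 20, overlapping windows of Prkar1a that share 1 copy, and in 1.79% of all 32851 windows. TGACG stood in 9 of the 20 windows and in 20.8% of all. Overlapping windows of Gnas and of Prkar1a share copies of it, so the 9 are not separate sites. By gene it stood in 5 of 7, for which no share over all genes was taken. Neither form was found in the 2 windows of Adcy3 or the 1 window of Pde4d. Capitals mark TGACG on either strand and the full element.
Prkar1a, chr11:109650699-109650998, + strand: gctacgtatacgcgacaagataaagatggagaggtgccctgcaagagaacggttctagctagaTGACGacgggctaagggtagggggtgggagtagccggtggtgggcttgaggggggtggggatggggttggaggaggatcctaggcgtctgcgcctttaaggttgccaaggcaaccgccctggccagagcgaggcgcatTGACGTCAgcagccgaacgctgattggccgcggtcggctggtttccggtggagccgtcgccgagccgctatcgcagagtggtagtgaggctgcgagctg
Adcy3, chr12:4133147-4133446, + strand: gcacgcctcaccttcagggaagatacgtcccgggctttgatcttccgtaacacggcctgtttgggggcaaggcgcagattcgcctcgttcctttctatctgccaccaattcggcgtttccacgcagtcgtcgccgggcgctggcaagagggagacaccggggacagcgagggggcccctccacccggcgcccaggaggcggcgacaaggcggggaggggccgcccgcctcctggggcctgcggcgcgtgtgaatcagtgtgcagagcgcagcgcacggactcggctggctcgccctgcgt
Pde4d, chr13:108653927-108654226, + strand: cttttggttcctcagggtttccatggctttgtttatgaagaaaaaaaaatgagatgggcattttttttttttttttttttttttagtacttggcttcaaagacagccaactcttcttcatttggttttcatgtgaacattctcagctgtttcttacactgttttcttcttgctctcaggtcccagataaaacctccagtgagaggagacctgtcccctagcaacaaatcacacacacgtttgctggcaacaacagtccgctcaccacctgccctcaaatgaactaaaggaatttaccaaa
In the Prkar1a window the full motif begins 49 bases before the start site. A match describes these letters only, and which start site thyroid uses was not measured.

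The rest of the pathway was read through 8 lists with 70 genes on the array, of which 61 were tested. In limma 0 of the 61 rose and 0 fell in knockout thyroid, beside 0% of all probe sets tested, and 0 had an unadjusted p under 0.05, against 0.511% of all tested. The estimates divided evenly, with 30 higher and 31 lower and a median of -0.0046. The genes with the smallest unadjusted p of each list are given with their means ± SD (n = 3 each).

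Among the thyrotropin subunits and the proteins that desensitise receptors, 2 of 5 genes had a higher knockout estimate and 3 a lower one, with a median log2 difference of -0.11. The arrestin Arrb1 averaged 460.0 ± 31.1 in knockout and 557 ± 85.0 in heterozygous thyroid, a log2 difference of -0.26. Its brightest knockout, at 495.5, was just under its dimmest heterozygous array, at 495.6. The receptor kinase Grk6 averaged 867 ± 33.5 in knockout and 946 ± 78.3 in heterozygous thyroid, a log2 difference of -0.12. The pituitary hormone subunits Cga and Tshb and the related Gpha2 were too dim to be tested. Other G protein subunits were listed with Ric8b, which is not a subunit. Of these 10 genes 2 had a higher knockout estimate and 8 a lower one, with a median log2 difference of -0.021. The inhibitory alpha subunit Gnai2 averaged 3048 ± 349.8 in knockout and 3366 ± 92.2 in heterozygous thyroid, a log2 difference of -0.15. The alpha subunit Gna12 averaged 857 ± 70.8 in knockout and 930.2 ± 14.7 in heterozygous thyroid, a log2 difference of -0.12. Of other cyclases 3 of 4 genes had a higher knockout estimate and 1 a lower one, with a median log2 difference of 0.044. Among them Adcy2 averaged 59.8 ± 34.2 in knockout and 84.2 ± 46.7 in heterozygous thyroid, a log2 difference of -0.40, and Adcy7 averaged 2779 ± 338 in knockout and 2673 ± 142 in heterozygous thyroid, a log2 difference of 0.050.

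For protein kinase A's further subunits, inhibitors and anchoring proteins, 7 of 13 genes had a higher knockout estimate and 6 a lower one, with a median log2 difference of 0.0067. The regulatory subunit Prkar2b averaged 6394 ± 1067 in knockout and 5836 ± 311 in heterozygous thyroid, a log2 difference of 0.12. The anchoring protein Akap11 averaged 2024 ± 224 in knockout and 1891 ± 127 in heterozygous thyroid, a log2 difference of 0.093. In the Epac branch, the route of cAMP that bypasses the kinase, 2 of 3 genes had a higher knockout estimate and 1 a lower one, with a median log2 difference of 0.013. The exchange factor Rapgef3 averaged 498 ± 74.0 in knockout and 536 ± 10.6 in heterozygous thyroid, a log2 difference of -0.11. Of other phosphodiesterases 6 of 11 genes had a higher knockout estimate and 5 a lower one, with a median log2 difference of 0.045. The insulin-regulated phosphodiesterase Pde3b averaged 2686 ± 598 in knockout and 2221 ± 402 in heterozygous thyroid, a log2 difference of 0.26. The PDE4 enzyme Pde4a read 76.6, 85.0 and 129 on knockouts 2, 4 and 6, against 61.2, 62.0 and 95.8 on heterozygous 1, 3 and 5, a log2 difference of 0.33. Prkar2b, Pde3b and Pde4a were also among the 12 of 61 genes with arrays 4 to 6 wholly above 1 to 3, against 11.6% of all tested, while 5 lay wholly below.

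For CREB and its coactivators 3 of 6 genes had a higher knockout estimate and 3 a lower one, with a median log2 difference of -0.029. The cAMP-regulated coactivator Crtc2 averaged 237 ± 12.4 in knockout and 268 ± 16.6 in heterozygous thyroid, a log2 difference of -0.17. The acetyltransferase Crebbp averaged 4261 ± 237 in knockout and 4532 ± 196 in heterozygous thyroid, a log2 difference of -0.089. Crtc2 read at most 250.4 in knockouts, against at least 256 in heterozygotes. Arrb1 and Crtc2 were the 2 of the 61 genes whose groups did not overlap, against 3.68% of all tested. Among transcripts that cAMP induces, 5 of 9 genes had a higher knockout estimate and 4 a lower one, with a median log2 difference of 0.0030. The kinase Sik1 averaged 336 ± 28.5 in knockout and 394 ± 32.3 in heterozygous thyroid, a log2 difference of -0.22. The mitochondrial coactivator Ppargc1a averaged 2042 ± 459 in knockout and 1691 ± 93.3 in heterozygous thyroid, a log2 difference of 0.24. Sik1 was wholly lower and Ppargc1a wholly higher on arrays 4 to 6 than on 1 to 3.

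**Figure D4:**
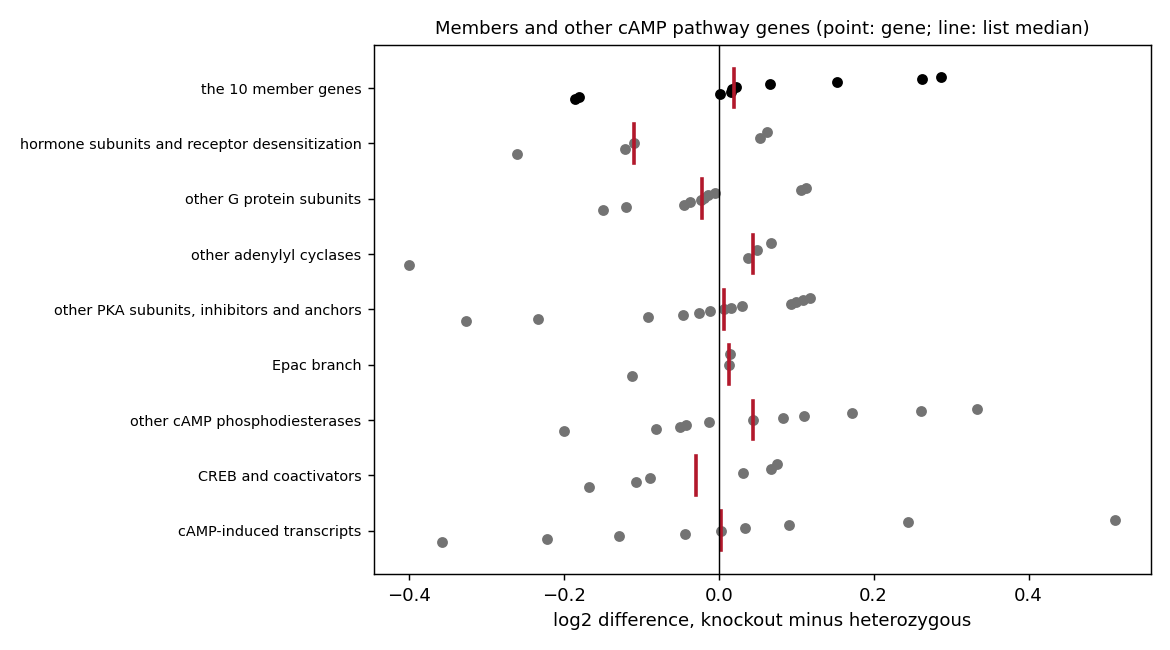
Log2 difference, knockout minus heterozygous, of the 10 member genes (black) and of the 61 tested genes of the 8 other lists (grey), 1 point a gene; red lines are medians. The list medians lie between -0.11 and 0.045.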

How the data were processed

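Per the labels, thyroid RNA was extracted with a Qiagen kit and labelled by NuGEN's Ovation method. The authors deposited 1 intensity for each probe set of an array, on a linear scale and made with GCOS, per the submitters' processing notes; its settings are not stated there. The 2% trimmed mean of every array was 500.002, so the arrays were already scaled, and a shift of most transcripts would have been removed.

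Values were analysed as log2(signal + 16.7), 16.7 being the 25th percentile of all values, on which scale folds of dim genes are understated. Of 45037 probe sets other than the 64 controls, 27022 with a mean above the 40th percentile (a signal of 43.5) were tested in limma 3.58.1 (R 4.3.3; lmFit, eBayes with trend, Benjamini-Hochberg over all 27022). The number of arrays limits the precision. Symbols came from the platform annotation, and all 34 member entries matched RefSeq (GRCm38.p6) by gene identifier. A signal is called above background where it exceeds the brightest of 27 bacterial control probe sets. The fit was also run on simulated arrays. These had independent noise and no shift by sample number, so that run does not check the p-values of the real arrays.

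The members and lists were chosen with earlier results of these data known. Named are all members and the 2 genes with the smallest p of each list (1 for Epac). So are the 5 tested probe sets with a single gene symbol most correlated with Tshr. Marker genes were taken from lists of cell types. Arrb1 and Crtc2 were singled out for not overlapping after their values were seen. The arrays were also normalized between each other by quantiles or by cyclic loess. Other alternatives were the pseudocount at 0.25 or 4 times its value, no filter and the 60th percentile, eBayes untrended and robust, array weights, the mean of a gene's probe sets, each array left out, and, added after seeing the data, sample numbers 1 to 3 and 4 to 6 as a block.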

Additional observations from a re-analysis of the deposited data

How the results depend on the processing

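In each of the 17 alternative settings 0 member probe sets, 0 genes of the other lists and 0 probe sets of the array passed in limma, with 90 to 941 probe sets (genes, where a gene's probe sets were averaged) at an unadjusted p under 0.05, and the smallest adjusted p of a member by its main probe set was 0.959 (array weights). The median log2 difference of the 10 genes lay between -0.041 with the sample numbers as a block and 0.10 with the mean of a gene's probe sets. The SD of the single arrays' medians over these genes was 0.11, which is not the error of a difference between groups. Estimates of single genes changed sign in 20 of 170 combinations of gene and setting, in 7 of the 10 genes. With the sample numbers as a block, the log2 difference turned to -0.051 for Gnas, -0.0034 for Adcy3, -0.032 for Adcy6, -0.087 for Prkaca and -0.11 for Pde4d, and with array weights to -0.22 for Tshr. When 1 array was left out, it ranged over -0.060 to 0.30 for Tshr, -0.079 to 0.12 for Gnas, -0.051 to 0.076 for Adcy6, -0.071 to 0.11 for Prkaca, -0.0032 to 0.044 for Prkar1a and -0.022 to 0.45 for Pde4d. For Adcy3, where the block changed the sign, it ranged over 0.074 to 0.54. Pde4b stayed positive in all settings run, and Adcy9 and Crem stayed negative. The cause of these changes was not tested. No paired analysis was possible because the groups share no sample number. Among members, the 10 probe sets near or under background had too little signal to test.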
